A study of Homo sapiens with 21 samples.

Results

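The proteasome subunit genes are those whose symbol in the count table is PSM followed by a letter from A to G and a number, and 48 of the 26485 genes in the table met that rule. They encode the subunits, assembly factors and regulators of the proteasome. They were measured in MDA-MB-436, an established breast cancer line with a mutated BRCA1 gene, transduced with a doxycycline-inducible lentiviral hairpin, either a control (shScr) or one against RNF8 (shRNF8). RNF8 attaches ubiquitin at sites of DNA damage, and the series title ties it to XRN2 and to the resolution of R-loops, structures of a DNA-RNA hybrid and a displaced DNA strand. Messenger RNA was sequenced from 3 libraries per hairpin. Hybrids were pulled down with S9.6, an antibody to DNA-RNA hybrids (DRIP-seq), from 2 shScr and 4 shRNF8 samples, and as many libraries of each hairpin were made after RNase treatment. All groups share the cell line, the vector type and the inducer, a single hairpin against RNF8 is labelled with no rescue, and whether replicates were separate cultures is not labelled. Effects of the hairpin other than loss of RNF8 therefore cannot be told apart from it.

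The 26S proteasome degrades proteins tagged with ubiquitin. Its 20S core is a barrel of outer alpha rings, which gate the entrance, and inner beta rings, which hold the proteolytic sites. The 19S cap binds ubiquitin chains, removes them, and threads the substrate into the core with a ring of ATPases. Interferon-gamma induces replacement beta subunits and an alternative 11S cap that shape peptides for MHC class I. When proteasome activity falls, the transcription factor NFE2L1 is known to raise subunit genes together through antioxidant response elements in their promoters.

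RNF8 mRNA was lower in the shRNF8 cells, with 28.9, 29.1 and 28.0 CPM (counts scaled to library size by the TMM method and a common total) in shScr replicates 1 to 3 and 9.33, 9.99 and 7.94 CPM in shRNF8. Total counts ran from 18121181 to 20006954 per RNA library. Libraries of a group were not alike. shScr replicate 1 differed from shScr replicates 2 and 3 with chi-square over degrees of freedom of 30.4 and 29.3 across genes, while those replicates differed from each other by 3.43. It was closer to the shRNF8 libraries, at 17.2 to 19.4. shRNF8 replicate 3 differed from shRNF8 replicates 1 and 2 by 13.2 and 10.9, and those from each other by 2.92. RNA results below are given with and without shScr replicate 1, the larger departure. Of the labelled line's mesenchymal markers, 6 of 6 were over 1 CPM, with a summed level of 2065 to 2353 CPM in shScr and 2143 to 2325 CPM in shRNF8. The receptor genes ESR1 and PGR stayed below 0.1 CPM on average, whereas ERBB2 averaged 57.1 CPM (shScr) and 55.1 CPM (shRNF8). Of 8 immune markers 2 were over 1 CPM (CD14 and CD68) and 3 were at 0 in every library (CD3E, MS4A1 and AIF1). Their sum was 120 to 141 CPM in shScr and 147 to 162 CPM in shRNF8, most of it CD68, and its part in the results was not tested. Luminal markers summed to 808 to 1401 CPM in shScr, and to 1005 to 1061 CPM in shRNF8, nearly all of it the keratins KRT8 and KRT18 (means 649 and 383 CPM in shScr). CDH1, EPCAM and KRT19 averaged under 1 CPM, GATA3 1.25 CPM and FOXA1 4.81 CPM in shScr.

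Promoter sequences show what the members share upstream of their starts. The set of RefSeq promoters used here (GRCh38.p14) gave 300 bases, 250 before the start and 50 after it, for 42 of the 48 members. PSMA7, PSMB1, PSMB6, PSMB7, PSMD4 and PSMG3 had no entry in that set. Both strands were searched for 6 motifs. The antioxidant response element core TGACNNNGC was in 31.0% of the members' promoters, against 13.6% of all 27305 promoters of the same length. The ETS site CCGGAAG was also in 31.0%, against 10.7%, and the GC box GGGCGG in 66.7% against 44.6%. The CCAAT box was in 45.2% against 35.7%, the interferon-stimulated response element core GAAANNGAA in 16.7% against 8.29%, and the nuclear respiratory factor core GCATGCGC in 4.76% against 3.27%. The 27305 promoters were the first listed of each gene, expressed here or not. For a member with several, the promoter nearest its start in the count table was used. The median GC content was 62.0% in members and 58.3% in all promoters, and a GC box is more likely in GC-rich sequence. No motif share was adjusted for GC content, and a comparison with expressed genes alone was not made. The motifs are not independent, since the GC box and the ETS site both contain runs of G and C. A match describes letters and does not show a bound site.

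The following 250 bases upstream of the start are printed 5′ to 3′ on the gene's strand, with capitals for an antioxidant response element core, a CCAAT box, an ETS site or an interferon-stimulated response element core on either strand. PSMC3 (chr11:47426440-47426689, minus strand), PSMB10 (chr16:67936851-67937100, minus strand) and PSMC5 (chr17:63827181-63827430, plus strand) are shown because peaks reached their start in all 6 S9.6 libraries with the highest mean fold among members with a promoter entry. PSMA7, with a mean fold of 15.1, ranked above PSMC5 but had no entry. PSMD1 (chr2:231056617-231056866), PSMD11 (chr17:32444260-32444509) and PSMC2 (chr7:103347393-103347642), all on the plus strand, are shown because they are well expressed and had no start peak. PSMD3 (chr17:39980557-39980806, plus strand) had start peaks in shRNF8 libraries only, and its sequence was chosen after its values were seen.
PSMC3: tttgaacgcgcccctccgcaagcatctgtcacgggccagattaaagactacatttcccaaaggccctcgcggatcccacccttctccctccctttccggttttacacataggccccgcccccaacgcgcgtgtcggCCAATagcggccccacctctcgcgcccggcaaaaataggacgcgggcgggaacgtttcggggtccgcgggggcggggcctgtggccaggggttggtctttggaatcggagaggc
PSMB10: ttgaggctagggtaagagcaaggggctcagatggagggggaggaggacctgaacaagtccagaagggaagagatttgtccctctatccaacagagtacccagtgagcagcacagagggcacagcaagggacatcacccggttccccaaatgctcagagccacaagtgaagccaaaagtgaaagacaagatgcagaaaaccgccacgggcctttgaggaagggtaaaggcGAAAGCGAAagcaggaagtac
PSMC5: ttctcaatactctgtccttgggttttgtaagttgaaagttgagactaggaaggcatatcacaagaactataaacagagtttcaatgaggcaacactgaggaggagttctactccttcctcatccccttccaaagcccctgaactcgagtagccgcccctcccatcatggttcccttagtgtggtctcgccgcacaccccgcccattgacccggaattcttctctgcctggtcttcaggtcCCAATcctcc
PSMD1: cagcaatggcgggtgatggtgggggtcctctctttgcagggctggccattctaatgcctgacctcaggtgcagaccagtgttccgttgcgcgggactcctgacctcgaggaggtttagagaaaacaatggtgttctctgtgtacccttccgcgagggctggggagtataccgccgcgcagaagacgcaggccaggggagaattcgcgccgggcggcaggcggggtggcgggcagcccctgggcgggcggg
PSMD11: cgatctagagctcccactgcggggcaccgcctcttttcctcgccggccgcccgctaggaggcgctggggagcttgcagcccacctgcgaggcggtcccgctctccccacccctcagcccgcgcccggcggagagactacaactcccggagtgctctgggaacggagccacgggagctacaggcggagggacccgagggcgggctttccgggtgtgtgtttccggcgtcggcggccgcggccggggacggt
PSMC2: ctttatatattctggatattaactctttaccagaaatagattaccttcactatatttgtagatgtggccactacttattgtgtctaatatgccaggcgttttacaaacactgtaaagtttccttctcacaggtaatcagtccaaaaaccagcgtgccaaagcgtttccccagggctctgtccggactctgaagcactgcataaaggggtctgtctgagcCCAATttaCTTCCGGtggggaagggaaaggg
PSMD3: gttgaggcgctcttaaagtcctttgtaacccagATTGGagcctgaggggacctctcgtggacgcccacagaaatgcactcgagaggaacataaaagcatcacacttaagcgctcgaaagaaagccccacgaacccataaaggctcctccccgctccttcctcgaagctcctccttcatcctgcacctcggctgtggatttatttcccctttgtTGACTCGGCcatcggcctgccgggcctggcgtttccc

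PSMB10 held the interferon-stimulated core 21 to 13 bases before its start, and PSMD3 held the antioxidant core 37 to 29 bases before its start. PSMC2 paired a CCAAT box (31 to 27 bases before the start) with an ETS site on the other strand (23 to 17 bases before). None of the capitalised motifs lay in the printed stretch of PSMD1 or PSMD11.

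Of the 48 members 46 had enough counts to be tested. PSMA8, the alpha subunit of testis, had 0 counts in every library. PSMB11, the catalytic subunit of the thymus cortex, had 1 count, in shScr replicate 3. The members together took 0.744%, 0.655% and 0.653% of counts in shScr replicates 1 to 3 and 0.702%, 0.710% and 0.757% in shRNF8 (means 0.684% ± 0.0521 and 0.723% ± 0.0294, SD, n = 3 each), so the groups overlapped.

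Subunits that occur in equal numbers in the particle differed widely in mRNA level per length (CPM per kb of exon). Within the 14 measured constitutive core subunits the level ran from 25.1 for PSMA5 to 621 for PSMB4, a 24.8-fold range, and PSMA7 was the next highest at 337. The 6 ATPases spanned 3.22-fold, from 48.2 for PSMC2 to 155 for PSMC1. The 11 non-ATPase subunits spanned 5.75-fold, from 43.6 for PSMD11 to 251 for PSMD4, the ubiquitin receptor. The length is that of all annotated exons, so genes with long or many alternative exons read low on this scale. The interferon-inducible subunits PSMB8, PSMB9 and PSMB10 were at 18.6, 8.14 and 12.9 CPM per kb, below every constitutive core subunit. PSMB8 and PSMB9 have 7 further copies on alternative chromosome 6 haplotypes in the annotation and PSMB3 has 1 further copy, so reads of these genes may have been divided or lost and their levels are uncertain.

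**Figure D1:**
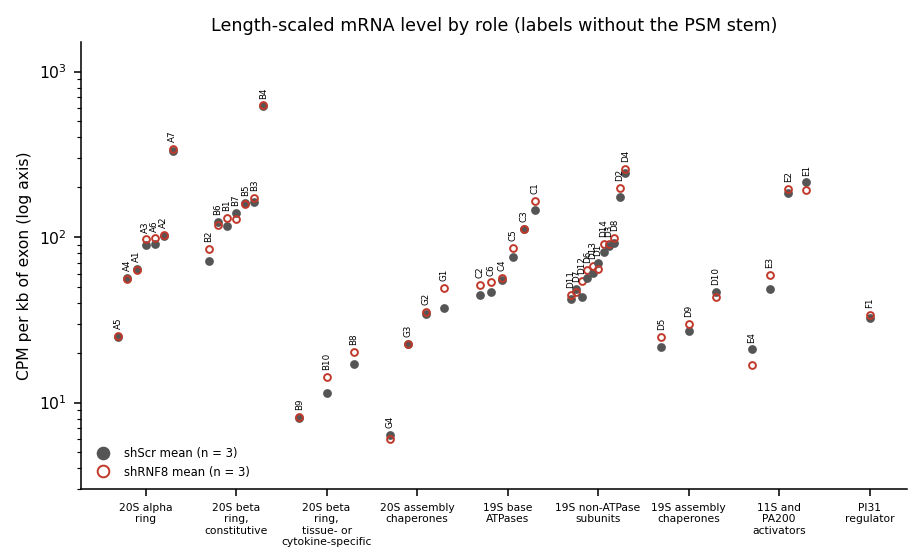
Mean mRNA level per kb of exon (log axis) in shScr (filled) and shRNF8 (open), 3 libraries each, for the 46 measured members grouped by role. PSMB4 and PSMA7 stand highest, and PSMG4 (6.19), PSMB9 and PSMB10 lowest.

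The first comparison asked whether proteasome mRNA differed between shRNF8 and shScr. With all 6 libraries 0 of 46 members were called higher and 0 lower by edgeR's quasi-likelihood test (Benjamini-Hochberg adjusted p under 0.05), while 0.97% of the 14018 genes tested were called higher and 1.57% lower. The smallest adjusted p among the members was 0.0759 by edgeR. At an unadjusted p under 0.05 there were 7 members (15.2%), against 20.1% of all genes. DESeq2 called 0 members higher and 1 lower, against 322 genes higher and 530 lower of all 14018 tested. The members' median log2 fold change was 0.07, against -0.00 over all genes. It was positive in 35 members and negative in 11, against 6894 and 7124 of all 14018 genes. In 5 members every shRNF8 library was above every shScr library (10.9%, against 12.5% of all genes), namely PSMB8, PSMB10, PSMD5, PSMD6 and PSMD8. In 2 members every shRNF8 library was below (4.35%, against 12.8% of all genes), namely PSME1 and PSME4.

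Groups that do not overlap with all 6 libraries are bound to stay apart, up to scaling, when 1 is left out. That PSMB8, PSMB10, PSMD5, PSMD6, PSMD8, PSME1 and PSME4 did so without shScr replicate 1 therefore adds nothing. Further members had such groups only in that fit, among them all 6 ATPase genes (shRNF8 higher) and PSMB9 (shRNF8 lower). In that fit 55.2% of all genes had such groups, and the members' share was not computed. The median log2 fold change over the 46 members changed from 0.07 with shScr replicate 1 to 0.17 without it. That library lay above both other shScr libraries in 42 of 46 members (91.3%), against 42.0% of all genes tested. The members' median level relative to each gene's shScr mean, on the log2(CPM + 0.5) scale, was 0.16, -0.07 and -0.08 in shScr replicates 1 to 3 and 0.03, 0.06 and 0.19 in shRNF8. Over all genes these medians were within 0.01 of 0 in each library. Of the 6 libraries shRNF8 replicate 3 was the highest in 23 members and shScr replicate 1 in 17. Without shRNF8 replicate 3, 0 members were called and the median log2 fold change was 0.03, against 0.07 with all libraries. The median member thus differed as much between libraries of the same hairpin as between hairpins.

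**Figure D2:**
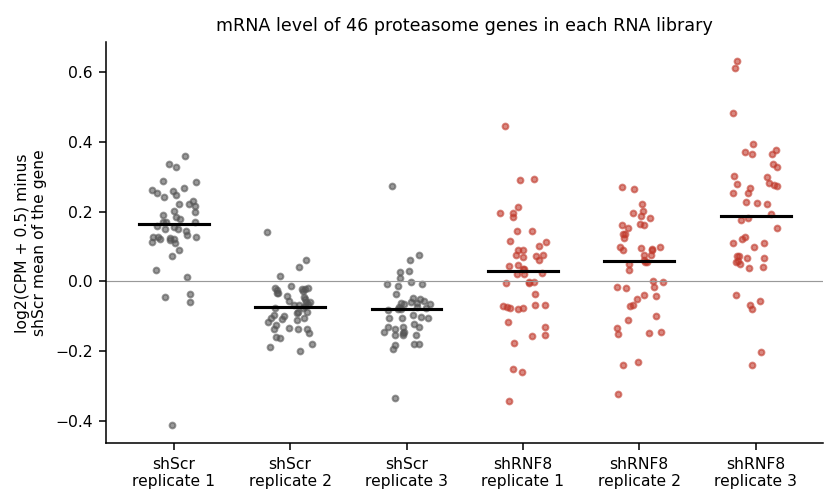
Level of each of the 46 members in each RNA library as log2(CPM + 0.5) minus the gene's shScr mean, with a bar at the median. The shScr replicate 1 and shRNF8 replicate 3 medians (0.16 and 0.19) stand above those of the other 4 libraries.

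Without shScr replicate 1, 11 members were called higher (23.9%, against 12.8% of 14259 genes) and 1 lower (2.17%, against 14.3%), with a median log2 fold change of 0.17. In that fit 3865 genes were called in all, so a call is common there. Of the 12 members called, shScr replicate 1 lay within the range of the shRNF8 libraries in 9 and above all of them in 1, PSME4. The calls are given below by role, each beside the value with all 6 libraries.

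Among the 20S alpha subunits, 0 of 7 were called in either fit. PSMA6, the one with the smallest p, had 126, 114 and 108 CPM in shScr and 116, 121 and 141 CPM in shRNF8. Its groups overlapped, with a log2 fold change of 0.12 (SE 0.10, edgeR adjusted p = 0.559). The 7 alpha genes ranged from -0.03 to 0.12 on the log2 fold change scale.

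The constitutive beta ring had 0 of 7 called with all libraries and 1 without shScr replicate 1. That one was PSMB2, a structural beta subunit, with 410, 316 and 317 CPM in shScr and 393, 395 and 448 CPM in shRNF8. All shRNF8 libraries of PSMB2 exceeded shScr replicates 2 and 3, and replicate 1 lay among them. Its log2 fold change was 0.24 (SE 0.12, edgeR adjusted p = 0.265) and 0.38 without shScr replicate 1 (edgeR adjusted p = 0.00236). The 3 catalytic subunits stayed close between the groups. PSMB5, which carries the chymotrypsin-like site and is the main target of bortezomib, had 265, 212 and 226 CPM in shScr and 222, 225 and 240 CPM in shRNF8. PSMB6, with the caspase-like site, had 120, 102 and 99.5 CPM against 96.1, 102 and 112 CPM. PSMB7, with the trypsin-like site, had 156, 136 and 135 CPM against 134, 121 and 136 CPM. In all 3 the groups overlapped, and their log2 fold changes were -0.03, -0.05 and -0.12 (edgeR adjusted p = 0.876, 0.810 and 0.486).

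Of the subunits that replace them under interferon-gamma, 0 of 3 were called with all libraries. PSMB8, which replaces PSMB5, had 29.3, 30.5 and 30.8 CPM in shScr and 34.7, 33.8 and 39.2 CPM in shRNF8. Every shRNF8 library of PSMB8 was above every shScr library, with a log2 fold change of 0.25 (SE 0.10, edgeR adjusted p = 0.203). Without shScr replicate 1 that change was 0.23 (edgeR adjusted p = 0.105), not called. PSMB10, which replaces PSMB7, had 12.9, 10.8 and 10.99 CPM in shScr and 15.9, 13.5 and 13.6 CPM in shRNF8. Its groups did not overlap either, with a log2 fold change of 0.31 (SE 0.14, edgeR adjusted p = 0.239), and 0.40 without shScr replicate 1 (edgeR adjusted p = 0.0325). PSMB9, which replaces PSMB6, had 6.08, 9.16 and 10.1 CPM in shScr and 8.64, 8.15 and 9.06 CPM in shRNF8, and here shScr replicate 1 was the lowest of the 6. The log2 fold change of PSMB9 was 0.03 (SE 0.19, edgeR adjusted p = 0.949). Without shScr replicate 1 it was -0.16 (edgeR adjusted p = 0.436), with every shRNF8 library below the other shScr libraries, opposite to PSMB8 and PSMB10.

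Among the 20S assembly chaperones 0 of 4 were called with all libraries. PSMG1, which pairs with PSMG2 to build the alpha ring, had 53.1, 36.5 and 38.2 CPM in shScr and 51.6, 50.6 and 65.4 CPM in shRNF8. shScr replicate 1 fell inside the shRNF8 range, and the log2 fold change was 0.39 (SE 0.15, edgeR adjusted p = 0.191). Without that library it was 0.58 (SE 0.11, edgeR adjusted p = 0.00110), the largest member value in that fit. PSMG2, PSMG3 and PSMG4 had log2 fold changes of 0.04, 0.01 and -0.09 with all libraries.

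The 19S ATPases, which unfold the substrate, had 0 of 6 called with all libraries and 4 of 6 without shScr replicate 1. All 6 had positive log2 fold changes in both fits, with medians of 0.18 and 0.32. PSMC1 had 271, 212 and 209 CPM in shScr and 245, 259 and 282 CPM in shRNF8. PSMC2 had 171, 133 and 128 CPM against 152, 160 and 184 CPM, and PSMC5 had 145, 110 and 110 CPM against 134, 134 and 146 CPM. In each of these, shScr replicate 1 lay among the shRNF8 libraries and the other shScr libraries lay below them. Without it the log2 fold changes of PSMC1, PSMC2 and PSMC5 were 0.32, 0.34 and 0.33 (edgeR adjusted p = 0.00773, 0.00919 and 0.00665), and that of PSMC6 was 0.39 (edgeR adjusted p = 0.0177). PSMC3 and PSMC4 were not called in either fit. With all libraries PSMC3 was at 0.002 (SE 0.12). Leaving out 1 library at a time turned PSMC3 negative in 4 fits and PSMC4 in 2.

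Of the 11 non-ATPase cap subunits 0 were called with all libraries and 2 without shScr replicate 1. PSMD12, a scaffold subunit of the lid, had 90.8, 75.6 and 67.5 CPM in shScr and 85.5, 89.0 and 118 CPM in shRNF8. The groups overlapped through shScr replicate 1, and the log2 fold change was 0.32 (SE 0.14, edgeR adjusted p = 0.236), or 0.45 without it (edgeR adjusted p = 0.00961). PSMD2, a large base subunit, was the other, at 0.17 (edgeR adjusted p = 0.311) and 0.24 (edgeR adjusted p = 0.0232). PSMD14, the deubiquitinase of the lid, and the ubiquitin receptor PSMD4 were not called in either fit, at 0.16 and 0.07 with all libraries. Among the 3 cap chaperones PSMD5 had 79.2, 72.1 and 74.6 CPM in shScr and 86.2, 82.7 and 92.7 CPM in shRNF8. Its groups did not overlap, with a log2 fold change of 0.21 (SE 0.09, edgeR adjusted p = 0.218), or 0.25 without shScr replicate 1 (edgeR adjusted p = 0.0376).

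The activators that cap the core in place of the 19S held the widest contrast. PSME4, or PA200, a nuclear cap that is linked to acetylated histones, had 145, 153 and 148 CPM in shScr and 117, 118 and 126 CPM in shRNF8. Every shRNF8 library of PSME4 was below every shScr library. Its log2 fold change was -0.30 (SE 0.08, edgeR adjusted p = 0.0759, DESeq2 adjusted p = 0.0253), and it was -0.32 without shScr replicate 1 (edgeR adjusted p = 0.00610). PSME3, or PA28-gamma, a nuclear cap that acts without ATP, had 222, 169 and 160 CPM in shScr and 222, 219 and 229 CPM in shRNF8. Its log2 fold change was 0.28 (SE 0.12, edgeR adjusted p = 0.212), and 0.45 without shScr replicate 1 (SE 0.08, edgeR adjusted p = 0.000463), the smallest p among the members there. The interferon-inducible pair PSME1 and PSME2 had log2 fold changes of -0.16 and 0.09 (edgeR adjusted p = 0.351 and 0.640). PSMF1, the inhibitor PI31, had 138, 117 and 117 CPM in shScr and 126, 135 and 128 CPM in shRNF8, and was not called in either fit.

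**Figure D3:**
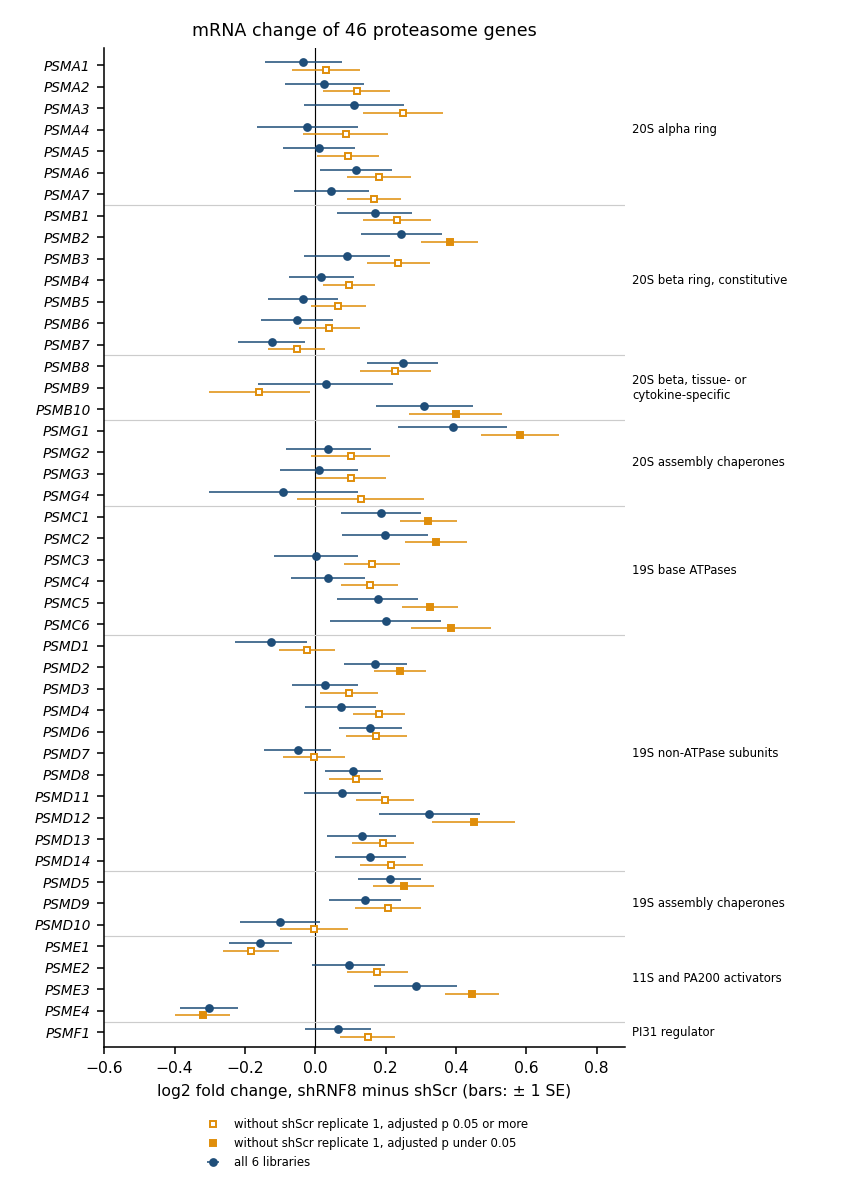
log2 fold change (shRNF8 minus shScr, bars ± 1 SE) of the 46 tested members by role, with all 6 RNA libraries (circles) and without shScr replicate 1 (squares, filled where the edgeR adjusted p is under 0.05). With all 6 libraries no member was called, and without shScr replicate 1 there were 11 higher and PSME4 lower.

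Genes that work with the proteasome were read from lists by pathway. In the list of MHC class I and interferon-gamma genes GBP1, an interferon-induced GTPase, had 1.13, 2.71 and 2.89 CPM in shScr and 5.97, 7.89 and 5.81 CPM in shRNF8. It rose, with groups that did not overlap (log2 fold change 1.55, edgeR adjusted p = 0.0252). TAP1, the peptide transporter gene next to PSMB9, had a log2 fold change of 0.12 (edgeR adjusted p = 0.509).

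The other lists had 0 genes called with all libraries. They held 10 proteasome parts with other symbols, 4 NFE2L1 pathway genes, 10 NFE2L2 genes, 11 ubiquitin genes and shuttles, 9 genes of endoplasmic reticulum degradation and 13 heat shock genes tested. Members with the smallest p in their lists were KIAA0368, a proteasome scaffold (-0.20, edgeR adjusted p = 0.188), DDI2, the protease that activates NFE2L1 (-0.14, edgeR adjusted p = 0.708), and NQO1 (0.34, edgeR adjusted p = 0.0781). Further ones were SYVN1, a ligase of the endoplasmic reticulum (-0.27, edgeR adjusted p = 0.212), and HSP90AA1 (0.44, edgeR adjusted p = 0.256). NFE2L1 itself averaged 156 CPM in both groups (SD 17.8 in shScr and 12.3 in shRNF8, n = 3 each). Without shScr replicate 1, where 12.8% of all genes were called higher and 14.3% lower, 6 of 13 heat shock genes were called higher and 0 lower. In that fit 3 of 10 NFE2L2 genes were higher and 2 lower, 3 of 11 ubiquitin genes higher and 1 lower, and 5 of 11 MHC class I and interferon-gamma genes higher and 2 lower. Of the proteasome parts with other symbols 2 of 10 were higher and 1 lower, of the endoplasmic reticulum genes 1 of 9 was higher and 1 lower, and of the 4 NFE2L1 pathway genes 0 were called. HSP90AA1, a cytosolic chaperone, had 3571, 2124 and 2064 CPM in shScr and 3285, 3270 and 3988 CPM in shRNF8, with shScr replicate 1 again among the shRNF8 libraries.

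The second comparison asked where DNA-RNA hybrids lay over the members. The authors' lists held 32358 to 50963 peaks in the S9.6 libraries and 254 to 1912 after RNase. A gene start was counted when a peak reached within 1000 bp of it. In shScr 26 and 21 of the 48 members had a start peak (54.2% and 43.8%). In shRNF8 replicates 1 to 4 there were 23, 23, 27 and 26 (47.9%, 47.9%, 56.25% and 54.2%). Of genes tested for RNA, 46.6% and 38.4% had one in shScr, and 40.8%, 36.8%, 47.8% and 44.4% in shRNF8. Of those with at least 50 CPM the shares were 63.0% and 53.6% in shScr, and 57.2%, 52.6%, 65.2% and 60.8% in shRNF8. The counts of the groups overlapped. The lists differed in length, with 49277 and 38659 peaks in shScr and 32358, 34103, 50963 and 48546 in shRNF8. With the lists kept to equal length, the mean was 18.5 members in shScr and 22 in shRNF8. With the summit required in the window it went the other way, at 21.5 in shScr and 18.75 in shRNF8. With a window of 500 bp it was 23 and 23.75. After RNase 0 of 48 members had a peak at the start, over the gene or at its end in any of 6 libraries, against 3.04% of tested genes with a peak over the gene in at least 1 of them.

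A start peak was present in all 6 S9.6 libraries in 13 members (27.1%), against 24.4% of genes tested for RNA, and in at least 1 in 35 members (72.9%), against 62.6%. Among genes with at least 50 CPM the share with all 6 was 37.5%, and of the 39 members above that level it was 25.6%. The 13 members were PSMA7, PSMB4, PSMB5, PSMB10, PSMC3, PSMC5, PSMD4, PSMD8, PSMD12, PSME1, PSME4, PSMG1 and PSMG4. Over the whole gene 24 members had a peak in all 6, against 41.6% of tested genes, and at the gene end, from 1000 bp before to 5000 bp after it, 19 did, against 28.8% of tested genes. Among genes with at least 50 CPM those shares were 61.3% over the gene and 41.9% at the end, and among the 39 members above that level they were 48.7% and 38.5%. Among the members with start peaks in all 6, 11 also had end peaks in all 6. The members are short, with a median span of 13110 bp against 27738 bp for tested genes.

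**Figure D4:**
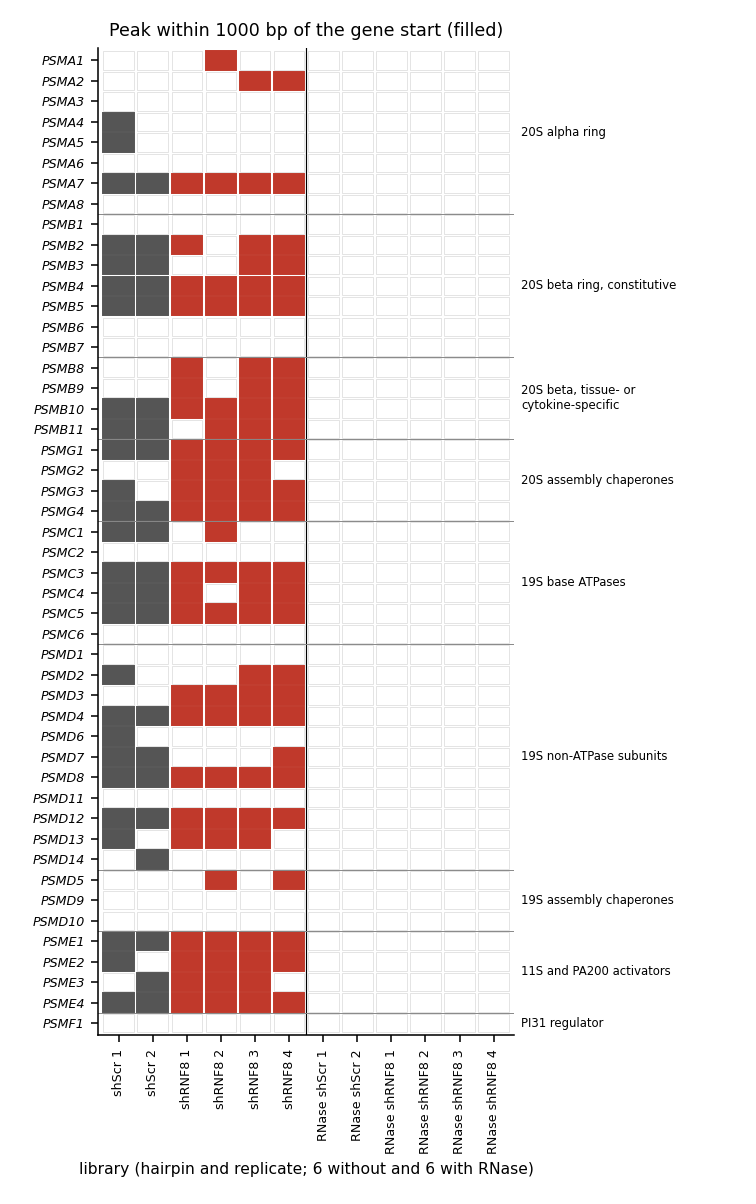
Presence (filled) of a peak within 1000 bp of the gene start for the 48 members in 6 S9.6 libraries (left) and 6 RNase-treated libraries (right), shScr in grey and shRNF8 in red. The RNase-treated side is empty, and PSMD3 is filled in all 4 shRNF8 and neither shScr library.

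By role, start peaks in all 6 libraries were found in 1 of 8 alpha, 2 of 7 constitutive beta, 2 of 6 ATPase and 3 of 11 non-ATPase genes. They were also found in 2 of 4 core chaperone and 2 of 4 activator genes, and in 1 of 4 tissue- or cytokine-specific beta genes (PSMB10). None of the 3 cap chaperone genes had them, nor did PSMF1. The 13 members without any start peak were PSMA3, PSMA6, PSMA8, PSMB1, PSMB6, PSMB7, PSMC2, PSMC6, PSMD1, PSMD9, PSMD10, PSMD11 and PSMF1. The median mRNA level was 146 CPM with peaks in all 6, 114 CPM with 1 to 5, and 113 CPM with none. PSMB11, with 1 RNA count in all, had start peaks in 5 S9.6 libraries. PSMA8, PSMB1, PSMC2, PSMD1 and PSMD10 had no S9.6 peak at start, gene or end, although PSMD1 averaged 222 CPM.

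The strongest peaks that reached a member's start often had their summit elsewhere. Ranked by the authors' fold enrichment averaged over the 6 libraries, the leading members were PSMC3 (18.5), PSMB10 (17.2), PSMA7 (15.1), PSMC5 (12.8) and PSMD8 (12.1). In PSMC3, an ATPase gene of 7705 bp, the strongest peak over the gene in each library had its summit 10580 to 12457 bp past the start, beyond the gene end and within SLC39A13. That peak also reached the start in shRNF8 replicates 1, 3 and 4. In PSMB10 the peaks of shScr replicates 1 and 2 and shRNF8 replicates 1 and 2 were 3936 to 4653 bp wide with summits inside the gene. In shRNF8 replicates 3 and 4 they were 48290 and 48064 bp wide, with the summit at -6925 bp relative to the start, where LCAT and SLC12A4 lie. With the summit itself required in the window, 6 members had a start peak in all 6 libraries. Of the members' S9.6 peaks, 128 had a summit within 1000 bp of the start, at a median of 183 bp downstream of it, and 68.8% of them were downstream.

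PSMD3, a non-ATPase subunit of the cap, was the single member with start peaks in 4 of 4 shRNF8 and 0 of 2 shScr libraries. That pattern was found in 1.12% of tested genes. No member had the opposite pattern, found in 1.6%. Inside the lists of shRNF8 replicates 3 and 4 the peak names carry the stems of replicates 1 and 2. The peaks differ between those lists and the labels give 4 replicates, but whether they are 4 separate samples was not tested. Over its 17193 bp PSMD3 had 2 and 1 peaks in shScr and 7, 4, 9 and 8 peaks in shRNF8. The start peaks had an authors' fold of 8.71, 5.001, 8.09 and 8.88 in shRNF8 replicates 1 to 4, and their summits lay 405, 406, -10 and 536 bp from the start. A further peak, with its summit 484 or 485 bp before the gene end, was called in all 4 shRNF8 libraries and in neither shScr library. The shRNF8 replicates 1 and 2 have fewer peaks in all than either shScr library. PSMD3 mRNA was 212, 179 and 193 CPM in shScr and 204, 207 and 184 CPM in shRNF8, with overlapping groups and a log2 fold change of 0.03 (SE 0.09, edgeR adjusted p = 0.899). If all are separate samples, an exact test of 2 against 4 libraries cannot give a two-sided p below 0.0667, so no single member can pass it.

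**Figure D5:**
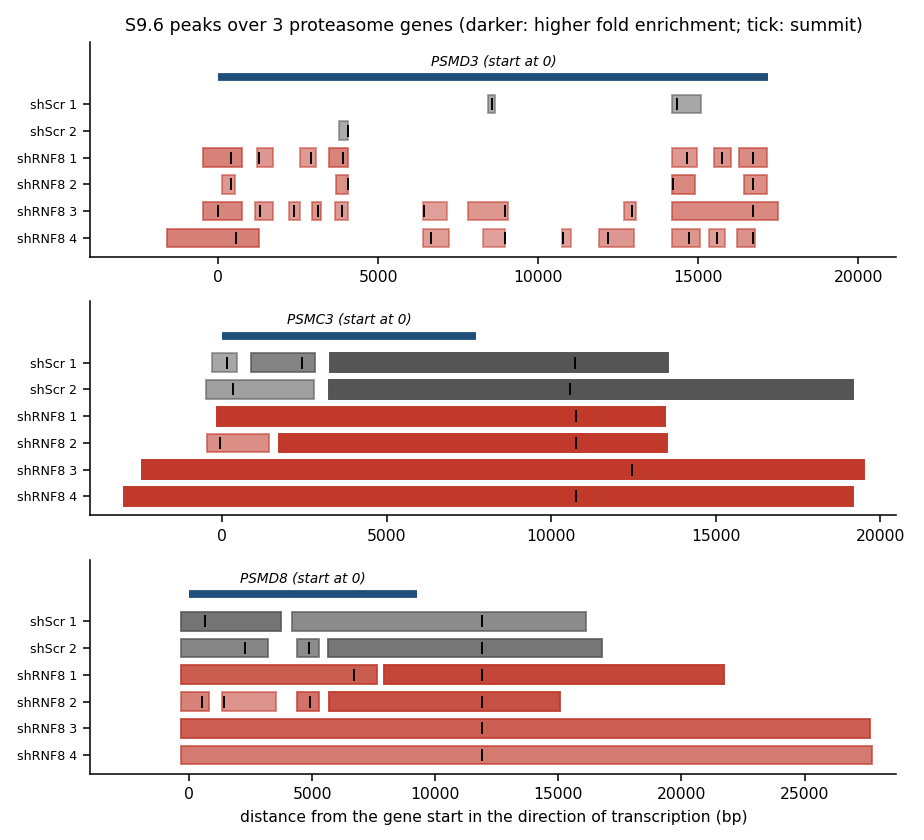
S9.6 peaks that overlap PSMD3, PSMC3 and PSMD8 or their start window, by distance from the gene start, in 2 shScr (grey) and 4 shRNF8 (red) libraries, with darker boxes for a higher fold and ticks at summits. PSMD3 has peaks at its start in shRNF8 only, while the wide peaks over PSMC3 and PSMD8 have summits past the gene end in both groups.

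At gene ends 2 members had peaks in 4 of 4 shRNF8 and 0 of 2 shScr libraries, PSMD3 and PSME4, against 0.294% of tested genes. PSMC6 had the opposite pattern, against 1.42%. The end measure was chosen after the data were seen. For PSME4 the shared peak had its summit 4279, 4275, 4318 and 4342 bp past the gene end, with a fold of 3.62, 3.70, 4.79 and 5.65 in shRNF8 replicates 1 to 4. At its start PSME4 had peaks in all 6 libraries, with a fold of 14.02 and 14.95 in shScr and of 10.9, 7.91, 10.1 and 8.19 in shRNF8; folds of separately called lists are not compared here. The 2 peaks past PSMC6 had -log10 q of 2.56 and 2.24, near the lowest values that the lists hold.

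PSMB2, PSMB3, PSMB11, PSMC1, PSMC4, PSMD2, PSMD7, PSMD13, PSME2, PSME3 and PSMG3 had start peaks in some libraries of both groups. Other members had them in some shRNF8 libraries and no shScr library, namely PSMB8, PSMB9 and PSMG2 in 3 of 4, PSMA2 and PSMD5 in 2 and PSMA1 in 1. The outermost starts used here lie 123248 bp from the RefSeq start for PSMA1 and 13759 bp for PSMA6. At its RefSeq start PSMA1 had 0 libraries with a peak, and PSMA6, with no peak at the outermost start, had 2 shRNF8 libraries with a peak. PSMA5, PSMA4, PSMD6 and PSMD14 had them in 1 shScr library and no shRNF8 library. The start of PSMB8 lies within 1000 bp of that of PSMB8-AS1, and PSMB9 shares a divergent start region with TAP1. Of their peaks, called in shRNF8 replicates 1, 3 and 4, some had summits inside the neighbour. The peak files do not tell the strand of the hybrid, so the genes of such a pair cannot be told apart. In all, 13 of 48 members (27.1%) had another start on the opposite strand within 1000 bp, against 21.5% of tested genes.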

How the data were processed

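RNA values are raw fragment counts per gene, made by the authors with featureCounts 2.0.1 on hg38 without a strand option, per the file headers, so antisense and overlapping genes cannot be told apart. DRIP values are the authors' deposited peak lists, 1 per library, with a fold enrichment (a linear ratio over local background) and -log10 of the p-value and q-value per peak. MACS2 2.2.7.1, Bowtie2 2.2.6, STAR 2.7.9a and Trim Galore 0.6.6 are named, with no roles, in the submitters' processing notes. Input libraries were not analysed here, and DRIP read depth is unknown.

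Counts were fitted in R 4.3.3 with edgeR 4.0.16 (filterByExpr, TMM, robust glmQLFit, glmQLFTest, hairpin as the only term), with p-values adjusted over all 14018 genes. Alternatives used DESeq2 1.42.0 and limma 3.58.1. Replicates may be technical, and p-values reflect just their spread. Peaks were joined in Python 3.11.15 with pandas 2.3.3 by an overlap of at least 1 bp with windows around the outermost start on the primary chromosome in the count table. Shares of tested genes are over 13969 genes with 1 locus. For PSMB8, PSMB9 and PSMB3 the exon length of the primary locus was used. Scripts were tested on simulated data.

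Members and gene lists were chosen with earlier results of these data known. Per-library values are given for the smallest p of each role, the catalytic subunits and their replacements, up to 8 members with the smallest p without shScr replicate 1, and those under 1 CPM. For peaks, the named members are the 5 with the highest mean fold and those with a pattern of 1 hairpin. Of the related lists the gene with the smallest p and those called are named, except that the results of a few genes are not reported here. RNA levels per length use exon length from the count table. Protein sequences were not used here.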

Additional observations from a re-analysis of the deposited data

How the results depend on the processing

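The count of 0 members called held under upper-quartile scaling, library-size scaling, limma-voom, no low-count filter and a mean CPM of at least 5. DESeq2 called 1 member (PSME4) and 852 genes in all, against 356 by edgeR, and without the low-count filter 648 genes were called. With each library left out in turn, 0 to 12 members and 46 to 3865 genes were called, and the members' median log2 fold change ran from 0.03 to 0.17; the highest of each was without shScr replicate 1, and the cause was not tested. The replicate numbers did not pair the libraries: same-numbered libraries correlated at -0.08, 0.13 and -0.28 in their deviations, and 1 of 3 correlated best with its own number. With the replicate block 0 members and 501 genes were called, and the members' median log2 fold change was 0.08. Leaving out a library changed the sign of the log2 fold change of 17 members not called with all 6 libraries: PSMA1 (-0.15 to 0.0303), PSMA2 (-0.0766 to 0.12), PSMA3 (-0.0454 to 0.25), PSMA4 (-0.19 to 0.0891), PSMA5 (-0.0596 to 0.0924), PSMA7 (-0.0323 to 0.17), PSMB4 (-0.0266 to 0.095), PSMB5 (-0.10 to 0.0658), PSMB6 (-0.11 to 0.0401), PSMB9 (-0.16 to 0.18), PSMC3 (-0.0867 to 0.16), PSMC4 (-0.0324 to 0.15), PSMD3 (-0.0302 to 0.0952), PSMD7 (-0.11 to 0.000858), PSMG2 (-0.0592 to 0.11), PSMG3 (-0.0687 to 0.10), PSMG4 (-0.25 to 0.13). For peaks, the mean number of members per S9.6 library with a start peak was 24.3, and 19.3 to 25.5 under a stricter threshold, equal list lengths, summits in the window, other windows or RefSeq starts. With a library left out it was 23.8 to 25, with a peak over the gene 31.2 to 33.2, and at the gene end 28.0 to 29.6. The number of members with start peaks in 1 hairpin group only was 1, and 2 with RefSeq starts, an alternative added after seeing the data, where PSMG2 joined PSMD3. It was 1 to 4 with a library left out, the highest without shScr replicate 1, shScr replicate 2 or shRNF8 replicate 2. It was 1 under each of the other peak settings. Presence of a peak depends on the depth of its library, which is unknown.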
